A study of Mus musculus with 6 samples.

Results

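The 10 collagen genes described here are Col1a1, Col1a2, Col3a1, Col5a1, Col5a2, Col5a3, Col6a1, Col6a3, Col8a1 and Col12a1, chosen by symbol, with every probe that carries one of these symbols alone. They were read in 6 tumours grown from 4T1, a carcinoma line of the mouse mammary gland. In the platform annotation 8 of the 10 genes had a named probe, 16 probes of the 45281 on the array. Col6a3 and Col12a1 had none there and are not analysed here. Of the 16 probes, 13 were detected above background and tested, and the 3 that were not are all further probes of Col5a2.

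The 3 arrays labelled uPA overexpression came from tumours of 4T1 cells stably carrying a lentiviral insert of mouse uPA. This is the urokinase plasminogen activator, a secreted protease that cleaves plasminogen to give plasmin. The 3 empty vector arrays came from tumours of 4T1 cells that received the same kind of virus without an insert. In both groups the host animals were female BALB/c mice aged 8 to 10 weeks, the site was the fifth mammary fat pad, and tumours were taken on day 7. No source used here names the promoter that drives uPA in the vector. The text speaks of tumours in triplicate without saying that each came from its own mouse, so p-values measure only the spread between these samples, which may be technical.

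The RNA came from whole tumours, which hold cancer cells and host stroma together, so fewer cells of a type and less RNA per cell cannot be told apart. Mean raw intensity was 415.7 to 460.8 and 43.6% to 46.1% of probes were detected per array, and precision is set by the small number of arrays. Plau, which encodes uPA, read 11.94, 12.28 and 12.20 in tumours labelled uPA overexpression 1, 2 and 3, against 12.97, 13.16 and 12.70 in empty vector tumours 1, 2 and 3 (normalised log2 intensity). It was lower by limma (log2 difference -0.80, SE 0.154, adjusted p = 0.0393), which goes against the label. The call was lost with any 1 array left out (limma adjusted p 0.0603 to 0.122), without the detection filter and without shared variance, while the difference stayed between -0.92 and -0.69. The 1 named Plau probe does not show whether it reads the virus's transcript. Directions below are therefore those of the libraries labelled uPA overexpression against empty vector. Keratins of mammary epithelium were detected in both groups, while Epcam, another epithelial marker, was above background on no array.

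Collagens are secreted proteins whose chains wind around each other into a helix. Types I and III make up most of the fibrils of soft connective tissue, and type V is built into the same fibrils and limits their thickness. Type VI forms beaded filaments, type VIII forms a network known from blood vessels and the cornea, and type XII decorates fibril surfaces. In mammary tumours fibrillar collagen is laid down mainly by fibroblasts, and dense collagen is a known feature of stiff tumour stroma.

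Transcripts for the α2 and α3 chains of type V collagen and the α1 chain of type VIII read lower in the tumours labelled uPA overexpression. The proteins were not measured. By limma with Benjamini-Hochberg adjustment over all tested probes, 5 of 13 collagen probes passed 0.05 in the lower direction, where 2.03% of all tested probes did. The 5 were both detected probes of Col5a2, the 1 probe of Col5a3 and both probes of Col8a1. None of the 13 passed in the higher direction, where 1.54% of all tested probes did. At an unadjusted p under 0.05 the count of higher probes was also 0 of 13, beside 9.36% of all tested probes. The other 8 probes, of Col1a1, Col1a2, Col3a1, Col5a1 and Col6a1, did not pass. Of the 13 probes 12 had a difference below 0, against 49.2% of all tested probes, and the median was -0.53 against 0.01 over all tested probes. At gene level 3 of 8 genes, Col5a2, Col5a3 and Col8a1, were called lower, beside 3.08% of all tested genes, and 0 were called higher, beside 2.29%. At an unadjusted p under 0.05, 7 of the 13 probes were lower, beside 10.2% of all tested probes.

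The calls were close to the threshold. With any 1 of the 6 arrays left out, 0 or 1 of the 5 probes passed, although every one of the 5 stayed below 0 each time. The median was -0.31 without uPA 1 and -0.69 without uPA 3. In 8 of the 13 probes every tumour labelled uPA overexpression lay below every empty vector tumour, beside 13.7% of all tested probes, and in 0 probes the reverse held, beside 13.2%.

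**Figure D1:**
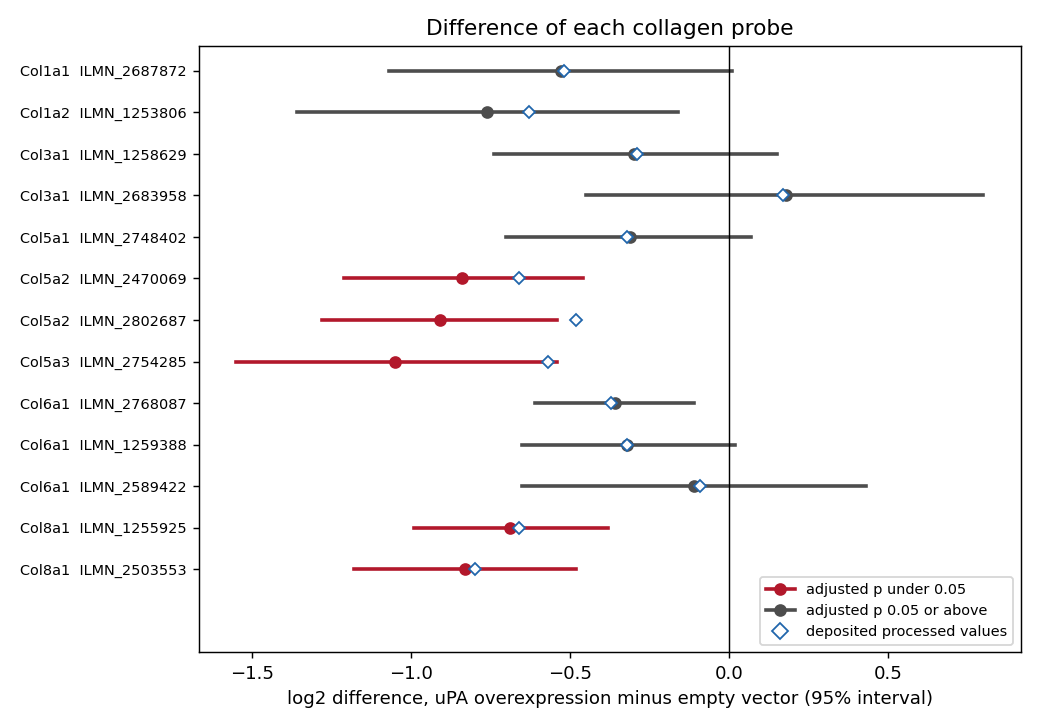
Log2 difference (x axis, uPA overexpression minus empty vector) of each tested collagen probe (rows), with the 95% interval of the limma fit (n = 3 arrays a group) and, as open diamonds, the difference in the authors' processed values. The 5 red probes of Col5a2, Col5a3 and Col8a1 passed an adjusted p of 0.05, and 12 of 13 points lie left of 0.

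Type V collagen is a minor fibril component in which the α1, α2 and α3 chains, encoded by Col5a1, Col5a2 and Col5a3, combine. Col5a3, whose chain has a narrower tissue distribution than the other two, read 5.19, 5.89 and 5.85 in tumours labelled uPA overexpression 1 to 3, against 6.66, 6.94 and 6.47 in empty vector tumours 1 to 3. All 3 were below all 3 empty vector tumours, with a gap of 0.58 between the groups. The mean was 5.64 ± 0.40 against 6.69 ± 0.24 in empty vector tumours (SD, n = 3 each). The difference was -1.05 (SE 0.216, 95% interval -1.55 to -0.54, limma adjusted p = 0.0476), a fold of 0.484.

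Col5a3 was also one of the dimmest collagen probes. Its raw intensities were 91.8, 116.9 and 117.2 in tumours labelled uPA overexpression, against 162.8, 169.8 and 137.9 in empty vector tumours, while probes not above background, such as the undetected Col5a2 probes, gave 53.9 to 74.3. The probe was detected on all 6 arrays. The size of the difference depended on the background step: it was -0.59 with no background correction (limma adjusted p = 0.03) and -0.57 in the authors' processed values. It was the furthest below 0 of the 13 probes with background correction, but not without it, where the second Col8a1 probe stood at -0.80.

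Col5a2 encodes the α2 chain, which pairs with α1 in the common form of type V. Its brighter probe, ILMN_2470069, read 7.27, 7.31 and 7.75 in tumours labelled uPA overexpression, against 8.12, 8.45 and 8.27 in empty vector tumours. The groups were separated by 0.37. The difference was -0.84 (SE 0.161, 95% interval -1.21 to -0.46, limma adjusted p = 0.0391), a fold of 0.559.

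The dimmer Col5a2 probe, ILMN_2802687, read 5.74, 5.83 and 5.38 in tumours labelled uPA overexpression, against 6.44, 6.77 and 6.46 in empty vector tumours. Here too the groups lay apart, by 0.62. The difference was -0.91 (SE 0.157, limma adjusted p = 0.0293), and -0.50 with no background correction (limma adjusted p = 0.024), so this size depended on the background step as for Col5a3. Among the tumours labelled uPA overexpression, tumour 3 was the highest by the brighter probe and the lowest by the dimmer one. The remaining 3 probes, ILMN_1221670, ILMN_1255413 and ILMN_2599650, were above background on 0 of 6 arrays and give no measure of the gene.

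Col5a1, which encodes the α1 chain present in nearly all type V molecules, read 12.20, 12.65 and 12.83 in tumours labelled uPA overexpression, against 12.84, 12.88 and 12.90 in empty vector tumours. The groups did not overlap, but by only 0.01, and tumour 1 stood below the other two. The difference was -0.31 (SE 0.166, 95% interval -0.70 to 0.07, limma adjusted p = 0.348), and -0.14 without uPA 1. The 3 empty vector tumours differed little among themselves (SD 0.03) and those labelled uPA overexpression more (SD 0.32).

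Col8a1 encodes the α1 chain of type VIII collagen, a short-chain collagen made by endothelial, smooth muscle and some stromal cells. Its first probe, ILMN_1255925, read 10.46, 10.25 and 10.57 in tumours labelled uPA overexpression, against 10.96, 11.25 and 11.14 in empty vector tumours. The second, ILMN_2503553, read 10.39, 10.07 and 10.42 in tumours labelled uPA overexpression, against 10.89, 11.24 and 11.23 in empty vector tumours. In both probes the groups lay apart, by 0.39 and 0.47, and tumour 2 was the lowest of those labelled uPA overexpression. The first differed by -0.69 (SE 0.129, 95% interval -0.99 to -0.38, limma adjusted p = 0.0365) and the second by -0.83 (SE 0.149, limma adjusted p = 0.0330). Folds were 0.621 and 0.564, and the authors' processed values gave -0.66 and -0.80.

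**Figure D2:**
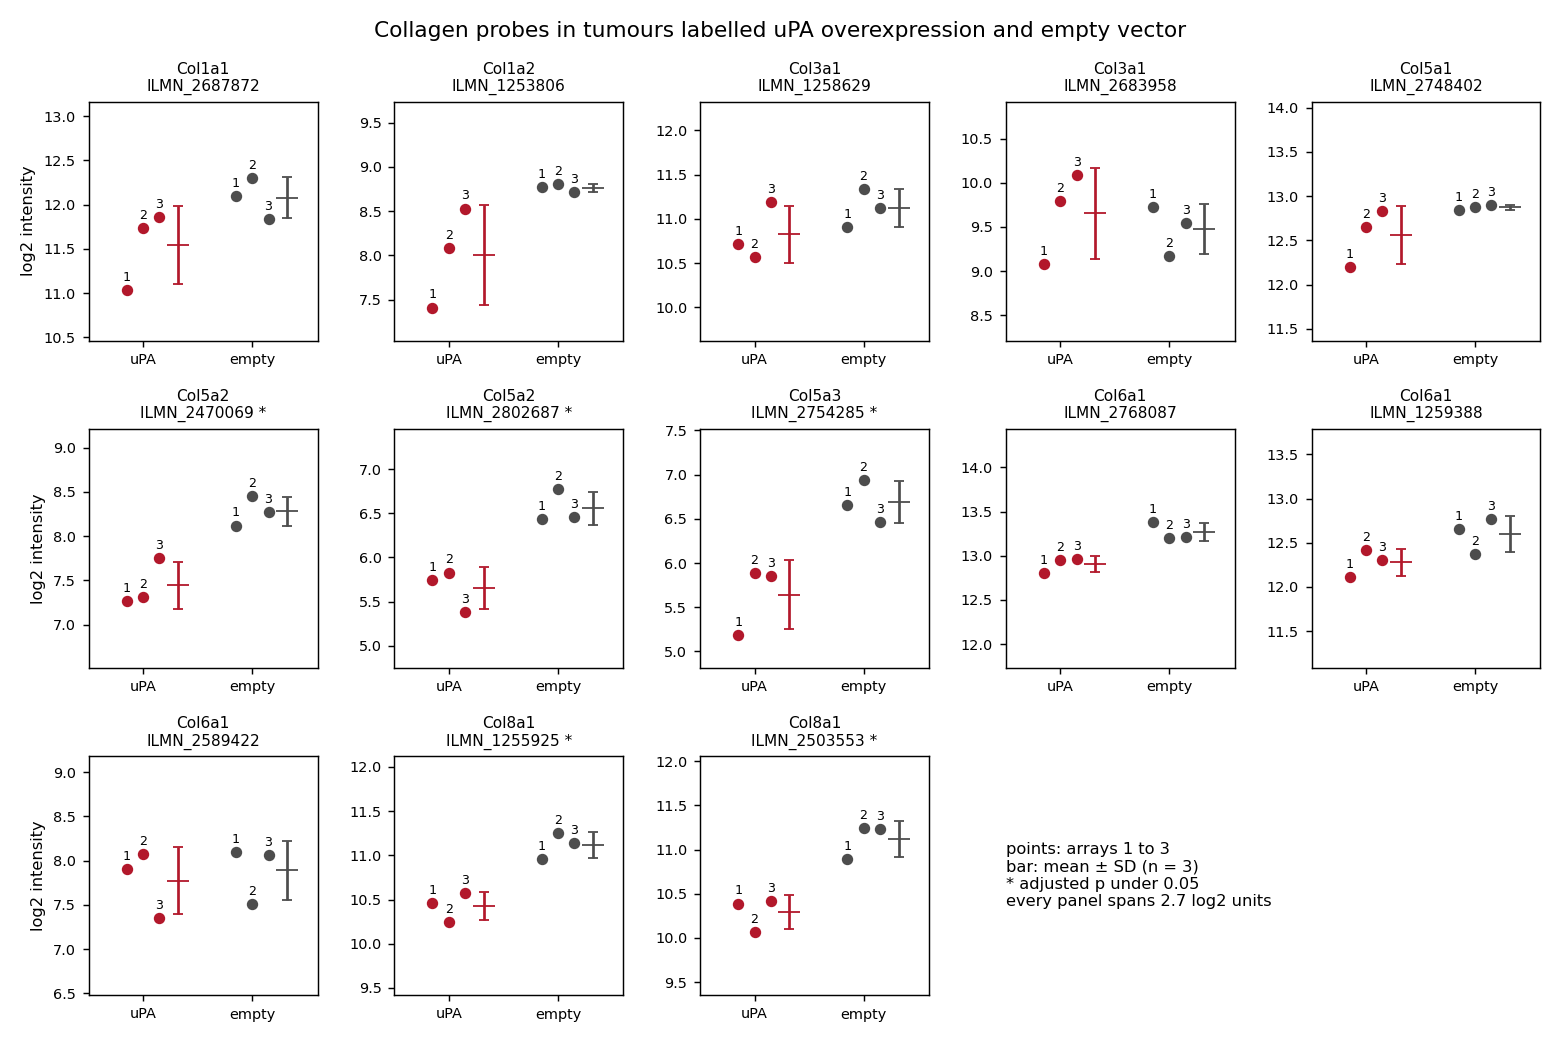
Normalised log2 intensity (y axis) of the 13 tested collagen probes in tumours labelled uPA overexpression (left, red) and empty vector tumours (right, grey), points numbered by replicate, with the mean ± SD (n = 3) beside them. The groups are apart in the 5 starred probes of Col5a2, Col5a3 and Col8a1, while those of Col1a1 and Col3a1 overlap.

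Type I collagen, the main fibril of connective tissue, is made of chains encoded by Col1a1 and Col1a2. Col1a1 read 11.04, 11.74 and 11.86 in tumours labelled uPA overexpression, against 12.10, 12.30 and 11.84 in empty vector tumours. Tumour 1 was well below the rest, and tumour 3 was level with empty vector tumour 3, so the groups overlapped. The difference was -0.53 (SE 0.231, 95% interval -1.07 to 0.01, limma adjusted p = 0.262), and -0.28 without uPA 1.

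Col1a2 read 7.41, 8.08 and 8.53 in tumours labelled uPA overexpression, against 8.77, 8.81 and 8.72 in empty vector tumours. The groups were apart by 0.19, with the empty vector tumours close together (SD 0.04) and the others spread widely (SD 0.56). The difference was -0.76 (SE 0.256, 95% interval -1.36 to -0.16, limma adjusted p = 0.166). It was -0.46 without uPA 1 and did not pass in either case. By the threshold that the series text gives, a fold above 1.5 with an unadjusted p under 0.05, Col1a2 would be the one probe added to the called 5, making 6 of 13, where 3.75% of all tested probes met it in the lower direction. The p-value used for that count was that of limma.

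Col3a1 encodes type III collagen, which forms thinner fibrils alongside type I. Its brighter probe, ILMN_1258629, read 10.71, 10.57 and 11.19 in tumours labelled uPA overexpression, against 10.91, 11.34 and 11.12 in empty vector tumours, with a difference of -0.30 (SE 0.190, 95% interval -0.74 to 0.15, limma adjusted p = 0.439). The dimmer probe, ILMN_2683958, read 9.08, 9.79 and 10.09 in tumours labelled uPA overexpression, against 9.72, 9.17 and 9.54 in empty vector tumours. Its difference was 0.18 (SE 0.267, 95% interval -0.45 to 0.80, limma adjusted p = 0.760), the 1 collagen probe above 0. That sign was not stable: the value was -0.04 without uPA 3, 0.02 without empty vector 2 and 0.46 without uPA 1. Both probes overlapped between groups and did not share an order: empty vector tumour 2 was highest of the empty vector tumours in one and lowest in the other.

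Col6a1 encodes the α1 chain of type VI collagen, which forms beaded filaments around cells. The brightest of its 3 probes, ILMN_2768087, read 12.80, 12.95 and 12.96 in tumours labelled uPA overexpression, against 13.38, 13.20 and 13.21 in empty vector tumours. The groups were apart by 0.24 and both were tight. The difference was -0.36 (SE 0.107, 95% interval -0.61 to -0.11), with an unadjusted p of 0.0111 and a limma adjusted p of 0.124. The second probe, ILMN_1259388, differed by -0.32 (limma adjusted p = 0.279) and the dimmest, ILMN_2589422, by -0.11 (limma adjusted p = 0.828), and both overlapped between groups.

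Whether group differences were of unequal size in chains of one type was compared array by array, for 9 pairs of probes picked after their values were seen. The log2 difference of the brighter Col5a2 probe minus that of Col5a1 was -0.52, and that of Col5a3 minus Col5a1 was -0.73. Both within-array differences were lower in every tumour labelled uPA overexpression than in every empty vector tumour. The exact two-sided permutation p was 0.1 for each, the smallest that 3 against 3 arrays allow, and 0.225 adjusted over the 9 pairs. The same p and lack of overlap held for the 2 probes of a single gene, Col8a1 (second minus first, -0.14), where no difference between chains is possible. This design cannot pass 0.05, and the pairs were chosen for their differences, so these stand as descriptions. Background correction acts more on dim probes than on Col5a1, one of the brightest. With no background correction the group differences were -0.67 for this Col5a2 probe, -0.59 for Col5a3 and -0.31 for Col5a1. Both gaps to Col5a1 were thus smaller there.

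For Col1a2 minus Col1a1 the value was -0.23 (exact permutation p = 0.2), with overlap between groups. Col3a1 and Col5a2 lie next to each other on mouse chromosome 1 in RefSeq's GRCm38.p6 annotation. Their brighter probes differed between groups by -0.30 (Col3a1) and -0.84 (Col5a2), and Col5a2 minus Col3a1 gave -0.54 with no overlap (exact permutation p = 0.1, adjusted 0.225). With no background correction these probes differed by -0.29 (Col3a1) and -0.67 (Col5a2). Within Col3a1, the dimmer probe minus the brighter one gave 0.47 (exact permutation p = 0.3).

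The tumours labelled uPA overexpression were not alike. Averaged over the 8 genes, each centred on its own mean, the level was -0.59, -0.29 and -0.03 in tumours labelled uPA overexpression 1, 2 and 3, against 0.24, 0.42 and 0.24 in empty vector tumours 1, 2 and 3. All 3 were below all 3 empty vector tumours, tumour 1 by the most. Tumour 1 was the lowest of its group in 8 of 13 probes and the highest in 0, while tumour 3 was the highest in 9. No empty vector tumour was the lowest of all 6 arrays in any of the 13 probes. The same counts were not made over all tested probes, so this order cannot be called particular to the collagens.

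**Figure D3:**
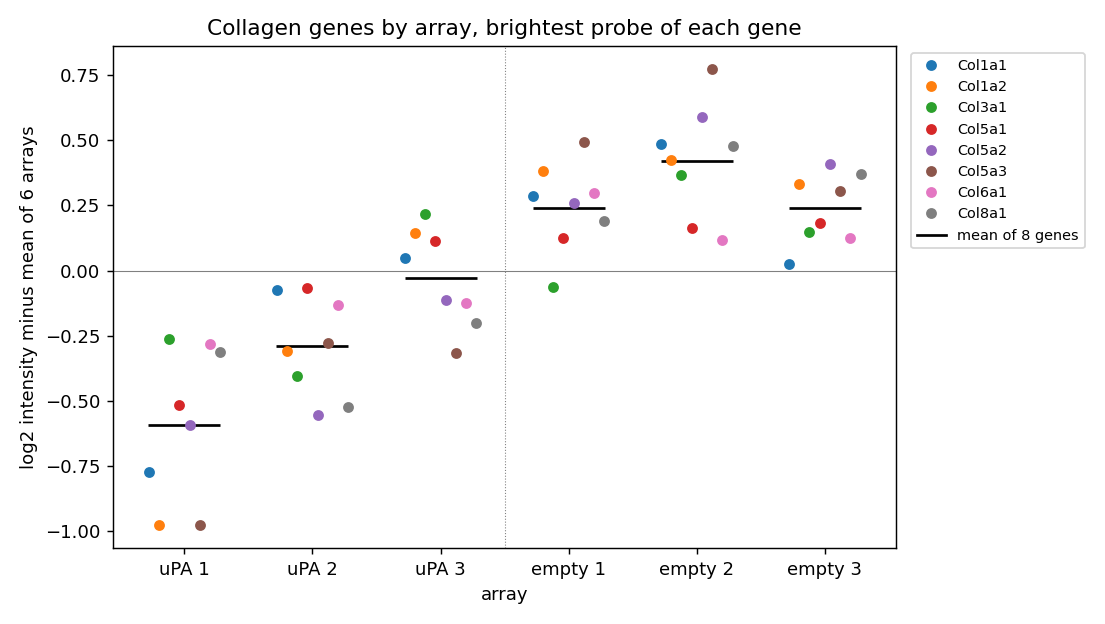
Log2 intensity of each collagen gene (brightest probe, centred on its mean over the 6 arrays; y axis) by array (x axis), with a black bar for the mean of the 8 genes. Bars run from -0.59 to -0.03 in tumours labelled uPA overexpression and from 0.24 to 0.42 in empty vector tumours.

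Over the 6 arrays the genes' profiles correlated with each other at Pearson r of 0.45 (Col3a1 with Col6a1) to 0.98 (Col1a2 with Col5a1), and Col5a2 with Col8a1 at 0.97. These values describe 6 arrays that share the group difference. Of 10845 other genes, Cxcr3, a chemokine receptor, was nearest to the mean profile of the 8 collagen genes (r = 0.997 over 6 arrays), followed by Tshz3 (0.995), Rusc2 (0.995), Adamts12 (0.993), Sf3b3 (0.991), Msln (0.991), Ror2 (0.991) and Dpcd (0.990). Among them, Cxcr3 (-0.77, limma adjusted p = 0.043) and Msln, which encodes the surface protein mesothelin (-0.90, limma adjusted p = 0.0406), were called lower. The mean profile used for the ranking was itself lower in every tumour labelled uPA overexpression than in every empty vector tumour. Genes nearest to that profile were thus lower by selection, so these calls describe the ranking and are not a separate test.

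Collagens outside these 10 held calls in the lower direction by their brightest probes. Of 35 such genes listed, 33 had a probe and 17 were tested, with 3 called lower, 0 called higher and a median of -0.18. Over all tested genes 3.08% were called lower and 2.29% higher, the shares to set beside this list and those below. Col27a1 (-0.62, SE 0.122, limma adjusted p = 0.035) and Col24a1 (-0.60, SE 0.133, limma adjusted p = 0.0483), which encode fibrillar chains, were called lower. Other tested probes of both genes did not pass, at -0.21 for Col27a1 and at -0.55 and -0.08 for Col24a1. Col4a5, which encodes a chain of basement membrane type IV, was called lower as well (-0.59, SE 0.105, limma adjusted p = 0.0258). With 1 array left out, Col27a1 and Col24a1 were never called (limma adjusted p 0.0565 to 0.14). Col4a5 was called only without empty vector 2 (limma adjusted p = 0.0375). All these differences stayed below 0. Col18a1, whose collagen is the source of endostatin, went the other way. Its brightest probe was not called (0.35, 95% interval 0.05 to 0.66, limma adjusted p = 0.178), 1 further probe was higher (0.80, limma adjusted p = 0.0424) and another was not called (0.30, limma adjusted p = 0.216).

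Fibril-associated, network and transmembrane collagens gave no call. Col6a2, which pairs with Col6a1 in type VI and lies beside it on chromosome 10, differed by -0.46 (limma adjusted p = 0.126). Col7a1, of the anchoring fibrils, differed by -0.48 (limma adjusted p = 0.141), Col16a1 by -0.18 (limma adjusted p = 0.339) and the transmembrane Col17a1 by 0.56 (limma adjusted p = 0.574).

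Genes that act on collagen chains inside the cell came next. Of 19 tested genes for hydroxylation and folding, by their brightest probes, 1 was called lower and 0 higher, with a median of -0.20. At an unadjusted p under 0.05, 8 were lower and 1 higher, beside 10.2% and 9.36% of all tested probes. The call was P4ha2, a catalytic subunit of prolyl 4-hydroxylase, which stabilises the collagen helix. It read 9.01, 9.32 and 9.27 in tumours labelled uPA overexpression, against 10.40, 10.25 and 10.39 in empty vector tumours (-1.14, SE 0.121, limma adjusted p = 0.012), with no overlap. Its other probe gave -1.10. A dimmer probe of Plod2 (-0.75) and one of P4ha1 (-0.62) also passed in the probe fit (limma adjusted p = 0.0349 for each). The brightest probes of these genes did not, at -0.62 for Plod2 (limma adjusted p = 0.0844) and -0.75 for P4ha1 (limma adjusted p = 0.143).

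Of 8 tested genes for propeptide cleavage and crosslinking, 1 was called lower and 0 higher, with a median of -0.24. This was Lox, the lysyl oxidase that starts crosslinks between collagen molecules. It read 9.88, 10.49 and 10.27 in tumours labelled uPA overexpression, against 11.12, 11.61 and 11.04 in empty vector tumours, which were all higher (-1.04, SE 0.206, limma adjusted p = 0.0357). Of 13 fibril assembly genes 0 were called by limma (2 lower and 0 higher at an unadjusted p under 0.05), with a median of -0.14. The largest difference among them was that of Thbs2, a matricellular regulator of fibril form (-1.09, SE 0.307, limma adjusted p = 0.0945).

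Receptors and degrading enzymes also held calls in the lower direction. Of 10 tested collagen receptors, 1 was lower and 0 higher: Itga2, the integrin chain that binds type I collagen (-1.38, SE 0.170, limma adjusted p = 0.0134). A dimmer probe of Itgb1 passed in the probe fit (-0.60, limma adjusted p = 0.0436), while its brightest did not (-0.13, limma adjusted p = 0.836). Of 8 breakdown genes 2 were lower and 0 higher. Mmp13, an interstitial collagenase, read 10.32, 12.07 and 11.15 in tumours labelled uPA overexpression, against 13.60, 13.12 and 13.80 in empty vector tumours (-2.33, SE 0.411, limma adjusted p = 0.0257). Mmp9, a gelatinase, read 11.72, 12.68 and 11.13 in tumours labelled uPA overexpression, against 13.55, 13.68 and 13.50 in empty vector tumours (-1.73, SE 0.346, limma adjusted p = 0.0365). Both genes read below every empty vector tumour in all 3 tumours labelled uPA overexpression. Leaving out uPA 1 ended the calls of Lox (-0.88, limma adjusted p = 0.108), Itga2 (-1.33, limma adjusted p = 0.0538), Mmp13 (-1.90, limma adjusted p = 0.0614) and Mmp9 (-1.67, limma adjusted p = 0.122), with differences of similar size to those over all arrays. Other arrays mattered as well. With 1 array left out, Lox and Mmp9 were called only without uPA 2, and Mmp13 only without uPA 2 or empty vector 2. Itga2 also lost its call without empty vector 1 (limma adjusted p = 0.0567) or uPA 3 (limma adjusted p = 0.0507). P4ha2 was called without uPA 1 (-1.05, limma adjusted p = 0.0406) and lost its call only without empty vector 1 (-1.12, limma adjusted p = 0.0501).

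**Figure D4:**
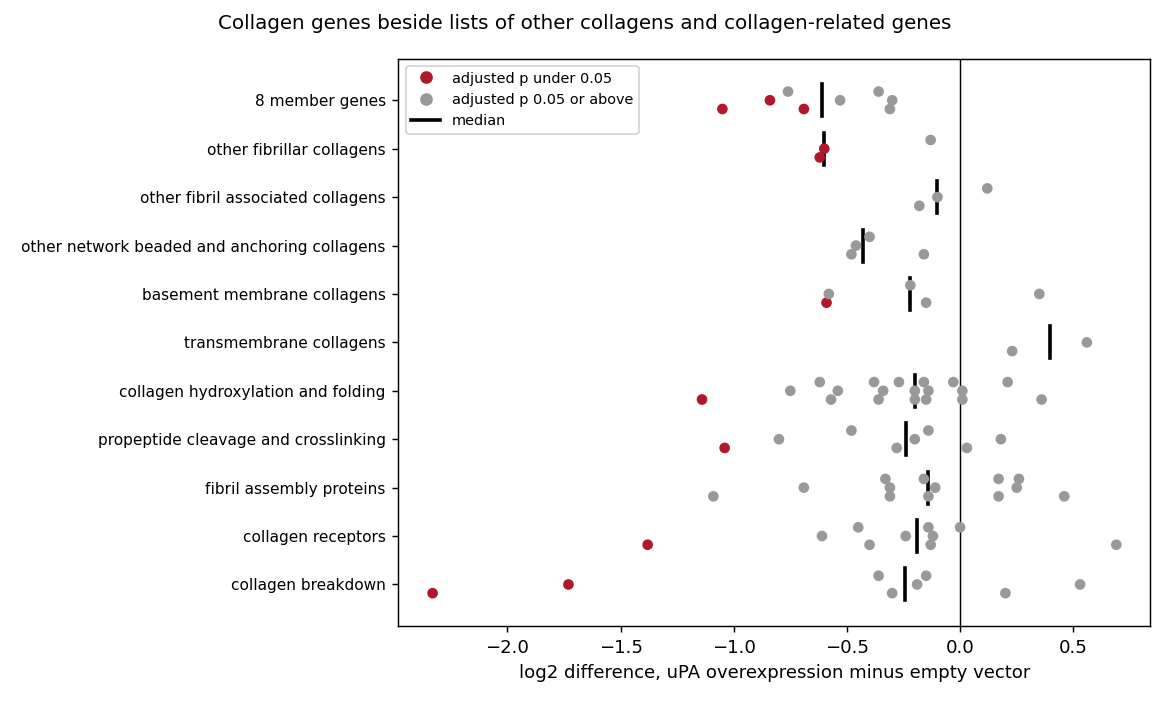
Log2 difference (x axis, uPA overexpression minus empty vector) of each tested gene, by its brightest probe, for the 8 collagen genes and 10 lists of other collagens and collagen-related genes (rows); black bars are medians. Red genes passed a limma adjusted p of 0.05, all of them in the lower direction, and medians run from -0.61 in the 8 genes to 0.39 in transmembrane collagens.

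Markers of several cell types moved beside the collagens, and their part in the collagen differences was not tested. Of 14 tested fibroblast markers 1 was lower, the growth factor receptor Pdgfrb (-0.80, limma adjusted p = 0.0225), and 0 were higher, with a median of 0.18. The summed level of that list was 14.76 to 15.11 in tumours labelled uPA overexpression and 15.01 to 15.07 in empty vector tumours (log2). Of 7 myofibroblast and smooth muscle markers, Tagln (-1.44, limma adjusted p = 0.0147) and Actg2 (-1.39, limma adjusted p = 0.0212) were lower, with a summed level of 12.70 to 13.48 in tumours labelled uPA overexpression and 13.87 to 14.06 in empty vector tumours. The fibroblast sums thus overlapped between groups and the smooth muscle sums did not. Overlapping sums do not show an equal fibroblast content. Vim, the brightest marker of that list, differed by 0.31 and Dcn by 0.25, neither called. Thy1 (-0.56, limma adjusted p = 0.0502) and Lrrc15 (-1.04, limma adjusted p = 0.0726) were lower without overlap. At an unadjusted p under 0.05, 3 of the 14 were lower and 0 higher, beside 10.2% and 9.36% of all tested probes. The smooth muscle sum was mostly Acta2, which read 12.46, 13.24 and 13.02 in tumours labelled uPA overexpression, against 13.63, 13.82 and 13.64 in empty vector tumours, and was not called (-0.79, limma adjusted p = 0.0656). In the same list Des differed by 0.63 and Myh11 by -0.05, neither of them called.

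Markers of epithelium and tumour cells were lower in 6 of 10 tested genes, Krt14 (-1.40) and Esrp1 (-1.26) among them, with a summed level of 14.72 to 14.96 in tumours labelled uPA overexpression and 15.45 to 15.63 in empty vector tumours. Macrophage markers were higher in 7 of 11 (summed level 14.76 to 15.01 in tumours labelled uPA overexpression and 14.05 to 14.16 in empty vector tumours). Mast cell markers were higher in 6 of 7, with a summed level of 11.48 to 11.86 in tumours labelled uPA overexpression and 9.84 to 10.34 in empty vector tumours. None of these 3 sums overlapped between groups. Of the other lists, 1 of 6 neutrophil markers was lower (S100a9, -1.18), 1 of 6 T and NK cell markers was higher (Nkg7, 0.90), and 0 of 6 pericyte, 0 of 7 endothelial, 0 of 1 B cell, 0 of 4 adipocyte and 0 of 3 skeletal muscle markers were called by limma. At an unadjusted p under 0.05, 2 pericyte markers were lower and 1 endothelial marker was higher, and none of the other 3 lists had a gene in either direction.

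The skeletal muscle actin gene Acta1 was spread widely within each group. It read 7.10, 8.29 and 12.12 in tumours labelled uPA overexpression 1, 2 and 3, against 4.86, 4.74 and 10.18 in empty vector tumours. Number 3 was thus the highest in each group. Acta1 was detected on 3 arrays labelled uPA overexpression but on only 1 empty vector array. Among the 13 collagen probes, uPA 3 was the highest of its group in 9, and empty vector 3 in 2, with no such count over all tested probes. Whether muscle tissue in the samples bears on the collagen values was not tested.

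Promoter sequence was read for the members from RefSeq (GRCm38.p6), as the 250 bases before the annotated start, and 7 of the 10 genes had an entry. Shown are both called genes with an entry, Col5a3 and Col8a1, and, for contrast, Col1a2 and Col3a1, which were not called. Capitals mark matches on either strand to CCAAT (the box known to bind NF-Y), GGGCGG (a GC box, CCGCCC on the other strand) and TATAAA (the core of a TATA box). No matches overlapped.

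Col5a3, chr9:20815068-20815317, minus strand: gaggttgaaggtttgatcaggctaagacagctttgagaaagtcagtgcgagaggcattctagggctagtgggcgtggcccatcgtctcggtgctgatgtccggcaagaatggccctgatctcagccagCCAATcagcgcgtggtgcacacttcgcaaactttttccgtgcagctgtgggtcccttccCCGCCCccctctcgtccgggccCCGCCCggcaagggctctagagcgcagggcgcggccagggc
Col8a1, chr16:57754738-57754987, minus strand: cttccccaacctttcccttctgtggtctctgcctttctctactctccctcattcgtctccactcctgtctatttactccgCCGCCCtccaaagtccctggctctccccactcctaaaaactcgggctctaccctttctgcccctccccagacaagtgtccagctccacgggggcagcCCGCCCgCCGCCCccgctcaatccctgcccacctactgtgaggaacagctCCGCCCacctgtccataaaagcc
Col1a2, chr6:4505368-4505617, plus strand: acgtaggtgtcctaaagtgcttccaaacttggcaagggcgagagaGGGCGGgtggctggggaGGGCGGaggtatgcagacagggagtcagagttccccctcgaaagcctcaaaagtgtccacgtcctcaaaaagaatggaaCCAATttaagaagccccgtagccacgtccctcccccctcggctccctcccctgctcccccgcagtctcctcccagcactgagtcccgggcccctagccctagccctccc
Col3a1, chr1:45311288-45311537, plus strand: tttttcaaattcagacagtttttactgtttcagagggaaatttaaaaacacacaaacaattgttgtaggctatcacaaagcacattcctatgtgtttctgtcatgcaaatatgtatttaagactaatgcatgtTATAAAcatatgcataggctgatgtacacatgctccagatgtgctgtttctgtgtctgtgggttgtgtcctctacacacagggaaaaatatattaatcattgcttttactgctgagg

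Counted back from the start, Col5a3 held a CCAAT at 122 and GC boxes at 63 and 41. Col8a1 held GC boxes at 170, 73, 66 and 23. Col1a2 held a CCAAT at 109 and GC boxes at 205 and 188, and Col3a1 a TATAAA at 117. Over the 7 genes CCAAT was found in 2, GGGCGG in 4 and TATAAA in 1, against 33.8%, 32.7% and 12.4% of 32851 promoters of the same length. GC content was 62.8% in Col5a3, 60.8% in Col8a1, 62% in Col1a2 and 35.2% in Col3a1, beside a median of 52.4% over all promoters. Matches were thus found in called and uncalled genes alike, and a match describes these letters and is not evidence of a bound factor.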

How the data were processed

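Total RNA of 6 tumours was labelled with biotin and hybridised to Illumina MouseWG-6 version 2.0 BeadChips. The deposited raw table gives, per the file headers, a signal intensity per probe and a detection p-value. That deposited column rises to 1 for bright probes, a fraction equal to 1 minus p, and was turned round. A second table, made by the authors in GeneSpring GX 11.0 per the labels, holds processed log2 values. They matched quantile-normalised values without background correction, each probe centred on an unknown level. Column medians were 0.00332, 0.00247 and 0.00288 for uPA overexpression 1 to 3, and 0.00227, 0.0042 and 0.00197 for empty vector 1 to 3. No source used here gives slide, scan or bead summary settings, so no batch could be fitted.

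Gene names attach to the processed table only, so the tables were joined by their values, each row with its mutual nearest, which had to be 3 times closer than the next. Of 45281 rows 45263 were joined. Their median distance was 0.00055, and that to the next row 0.0325. With any 2 processed columns exchanged, at most 2526 matched. On shuffled values 0 rows were matched wrongly. Those values were made from the raw table with no noise added per array, so they do not give the error rate of the real join. Several settings of the match were tried, and the one that matched most rows was kept. Of 34885 probes with 1 symbol, 34873 matched.

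Background was corrected by normexp with control levels inferred from detection p-values (offset 16), then quantile normalisation and log2 (R 4.3.3 with limma 3.58.1). The 20434 probes detected at p under 0.05 on 3 or more of the 6 arrays were kept. They were fitted with lmFit and eBayes without covariates, two-sided, Benjamini-Hochberg over all of them, threshold 0.05. The fit was tested on simulated data. A gene was represented by its brightest tested probe, with p from the probe fit adjusted over 10853 genes. A fit on those probes alone was run first, and the choice between them was made with both results seen. Both called the same 3 collagen genes. Differences are uPA overexpression minus empty vector. A list's summed level is the log2 of its summed signals.

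The members, lists and tests were chosen with earlier results of these data known. Every member probe is given. By plan each list names its called genes, or the gene with the largest difference, and cell type lists at most 2 genes by smallest p. Other genes were named outside that rule, among them Col6a2, Col18a1, Plod2, P4ha1 and Itgb1. In the cell type lists these were Lrrc15, Vim, Dcn, Acta2, Des and Myh11. Acta1 and the printed promoters were chosen after values were seen. Likeness was ranked by Pearson r to the mean of the 8 genes' centred values. The alternatives changed the background step (none, or offset 50), the scaling (75th percentile), the filter (none, or detection on all 6 arrays) or the table (deposited processed values). Others changed the fit (replicate block, array weights, trended and robust prior, no shared variance), used the mean of a gene's probes, or left out each array in turn.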

Additional observations from a re-analysis of the deposited data

How the results depend on the processing

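The calls for 5 collagen probes and 3 genes were lost, in part or in full, under several settings, and no call turned in direction. All 5 called probes stayed below 0 under every alternative run. The count of probes called lower was 0 without the detection filter, 0 with a replicate block and 0 with no shared variance, and 0 to 1 with each array left out. At an unadjusted p under 0.05 those settings gave 8 (of 16), 7 and 6 (of 13) probes in the lower direction, and 7 to 10 with an array left out. Counts over the whole array at that threshold took both directions together, so they are not a like share. The filter-free fit gave 5844 of 45281 probes in either direction. Of the 20434 filtered probes, 2983 met it with the block and 3656 with no shared variance. With an array left out 3033 to 4388 did. The count of genes called lower was 0 with the block and 0 with no shared variance. At an unadjusted p under 0.05 these 2 settings gave 5 and 4 genes in the lower direction, and the share over all genes was not counted there. The count of called genes was 0 to 1 with an array left out and 2 without the filter. It was 3 when variance was shared over 1 probe per gene, an alternative chosen after seeing the data. It was 4 with no background correction, the deposited processed values or the trended and robust prior. Col6a1 was the gene added (limma adjusted p 0.0455, 0.0459 and 0.0248). Over the whole array 848, 853 and 874 genes were called there, in both directions, and 538 without the filter. The trended and robust prior also called 6 probes lower. The median of -0.53 moved to -0.34 without the filter, which adds the 3 undetected probes, to -0.39 with array weights, and to between -0.69 and -0.31 with an array left out. The Plau difference of -0.80 had a limma adjusted p of 0.0708 without the filter (-0.80), 0.0962 with the block (-0.80), 0.155 with no shared variance (-0.80), and 0.0603 to 0.122 with an array left out (-0.92 to -0.69). The cause of these losses was not tested.

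Over the whole array, 730 probes were called, 1508 with array weights, 1127 with a trended and robust prior, 452 without the filter, 2 with the block, 0 with no shared variance (3656 at an unadjusted p under 0.05) and 0 to 798 with an array left out. The counts were 37 without empty vector 1, 798 without empty vector 2, 0 without empty vector 3, 21 without uPA 1, 421 without uPA 2 and 2 without uPA 3. Genes called numbered 583, against 1070 with array weights, 77 with the block, 0 with no shared variance and 32 to 604 with an array left out. Of the 32 called genes of the pathway and cell type lists, 2 to 28 remained called with an array left out (6 without empty vector 1, 28 without empty vector 2, 11 without empty vector 3, 2 without uPA 1, 25 without uPA 2 and 9 without uPA 3), 13 with the block and 0 with no shared variance, and all 32 kept their direction in each. Deviations of same-numbered tumours from their group means correlated at -0.186, -0.264 and 0.073, and those of differently numbered tumours at -0.124 to 0.322. With 3 arrays a group these values constrain each other. They cannot show whether same-numbered tumours share a batch. Dim probes, Col5a3 and the dimmer Col5a2 probe, are limited by signal over background.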
